A study of Mus musculus with 11 samples.

Results

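The protein components of the core spliceosome were followed in the hippocampal CA1 field of CamkdeltaC transgenic mice and their littermate controls. The genes were taken by name. They comprised protein-coding genes of the SF3a and SF3b subunits (Sf3a, Sf3b), the small nuclear ribonucleoprotein (snRNP) proteins (Snrp, Snrnp), the pre-mRNA processing factors (Prpf), the LSm proteins Lsm1 to Lsm8 and the U2 auxiliary factors (U2af), provided at least 10 reads were counted in at least 5 of the 11 libraries. In all 51 such genes are reported, out of 48709 gene identifiers counted. The choice of genes used no difference between the groups. All 51 were also among the 17293 genes that entered the test.

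There were 6 libraries from transgenic mice and 5 from controls, each from mice 3 months old and of both sexes. The sex of a library is not stated, nor is its litter or batch, and no label says that each library came from a different animal, so p-values measure the spread between these libraries, which may be technical. CamkdeltaC is a variant of the kinase encoded by Camk2d, which calcium and calmodulin activate, and the line is known as a model of heart failure in which a heart muscle promoter drives the transgene. The controls are named control, and the titles of all libraries carry tg_vs_wt, transgenic against wild type. Library totals were 24403918 to 34153726 counts in the transgenic group and 14263784 to 36898689 counts in the control group, with the lowest in control 5.

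The spliceosome removes introns from pre-mRNA. The U1 snRNP reads the 5′ splice site, the U2 auxiliary factors read the 3′ splice site, and the U2 snRNP, with SF3a and SF3b, settles on the branch site. The tri-snRNP of U4, U6 and U5 then joins, and the complex around Prpf19 accompanies the rearrangements that lead to catalysis. Most snRNAs sit in a ring of Sm proteins, U6 sits in a ring of LSm proteins, and a minor spliceosome with U11 and U12 handles a small class of introns. The brain is known for extensive alternative splicing.

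The calls below changed when trends with GC content were removed. Stretches of coding sequence from 3 of the genes called are therefore shown first, chosen for their contrast. Each is the central 120 bases of the coding sequence of the principal transcript (GENCODE M21, build GRCm38), 5′ to 3′. Sf3b5 and Lsm4 were higher in transgenic libraries, and Prpf39 was lower. The GC content of the 3 windows was 60.0%, 60.0% and 30.8% in the order printed. The windows of the called genes overlap as sets, from 43.3% (Prpf19) to 70.0% (Sf3a2) for the genes called higher and from 30.8% (Prpf39) to 50.8% (Prpf38b) for those called lower. The window of Sf3b5 does not stand for its whole transcript, which has 45.5% GC.
Sf3b5: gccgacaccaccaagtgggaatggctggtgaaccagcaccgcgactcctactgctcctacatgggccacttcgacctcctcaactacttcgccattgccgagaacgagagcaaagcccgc
Lsm4: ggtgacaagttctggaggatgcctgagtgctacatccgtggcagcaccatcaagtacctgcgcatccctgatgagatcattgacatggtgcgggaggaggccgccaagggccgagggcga
Prpf39: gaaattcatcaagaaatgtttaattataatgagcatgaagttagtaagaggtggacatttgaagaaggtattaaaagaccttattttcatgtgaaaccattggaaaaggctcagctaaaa

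In the edgeR quasi-likelihood test with Benjamini-Hochberg adjustment over all genes tested, 12 of the 51 core spliceosome genes passed an adjusted p of 0.05, which is 23.5%, against 17.9% of all genes. Sf3b5, Lsm4, Snrpb, Sf3a2, Snrpd2, U2af2 and Prpf19 were higher in transgenic libraries. These 7 are 13.7% of the members, and 7.41% of all genes were called higher. Prpf39, Prpf38b, Prpf4b, Sf3b1 and Snrnp48 were lower, 5 members or 9.8%, against 10.5% of all genes. The share called lower is near the background. Changes were small: the log2 fold change of transgenic over control ran from -0.61 to 0.35, with a median of 0.05 over the members and 0.01 over all genes, and 20 members lay within 0.1 of no change. On build mm10, with the position of Sf3b5 given further on, the genes called higher are Lsm4 at chr8:70673248-70678752, Snrpb at chr2:130171414-130179403, Sf3a2 at chr10:80798198-80804924, Snrpd2 at chr7:19149722-19153542, U2af2 at chr7:5062143-5079938 and Prpf19 at chr19:10895231-10909559. Those called lower are Prpf39 at chr12:65036333-65063386, Prpf38b at chr3:108902805-108911727, Prpf4b at chr13:34875302-34906064, Sf3b1 at chr1:54985169-55027481 and Snrnp48 at chr13:38204938-38227665.

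The libraries differed in a trend with GC content, and the calls changed when it was removed. In each library the deviation of a gene's log2 CPM (counts scaled to the library's size) from its mean was related to the GC content of its longest transcript, and the slope of that relation per 10 percentage points of GC was 0.27, 0.26, 0.18, 0.10, 0.02 and -0.06 in transgenic libraries 1 to 6, against -0.12, -0.06, -0.20, -0.22 and -0.16 in control libraries 1 to 5. The lowest transgenic slope and the highest control slope were both -0.06, and every other transgenic slope lay above every control slope, so slope and genotype cannot be told apart. The 7 members called higher had 45.5% to 62.2% GC (median 52.3%) and the 5 called lower had 37.6% to 42.1% (median 40.8%), so that each of the 5 had a lower GC content than every one of the 7. Annotated exon length also differed, with a median of 2658 bases for the higher genes and 10129 bases for the lower ones. With the GC trend of each library taken out, edgeR called 1.98% of all genes. Of the members 3 were called higher (5.88%, against 1.16% of all genes) and 0 lower (0.0%, against 0.821%). At an unadjusted edgeR p under 0.05, 2 members, Prpf39 and Snrnp70, were lower and 16 were higher. The share of all genes at that threshold was not counted for this fit, so these counts have no background. In 8 fits that also left out 1 library, 2490 to 3225 genes of the whole table reached it. The 3 called at the adjusted threshold were Sf3b5, Sf3b6 and Prpf38a. Their transcripts had 45.5%, 42.2% and 39.8% GC, each below the median of 47.6% over the members. After this correction the log2 fold change of the members fell as GC content rose (Spearman's rho -0.46). Removal of the trend on the GC content of the coding sequence instead, after which 5.82% of all genes were called, left Sf3b5 and Sf3b6 higher (3.92%, against 2.21% of all genes) and Prpf38b lower (1.96%, against 3.61%). Sf3b5 was thus the only member called in all 3 fits. Values described as after GC removal below are those after removal of the transcript GC trend.

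**Figure D1:**
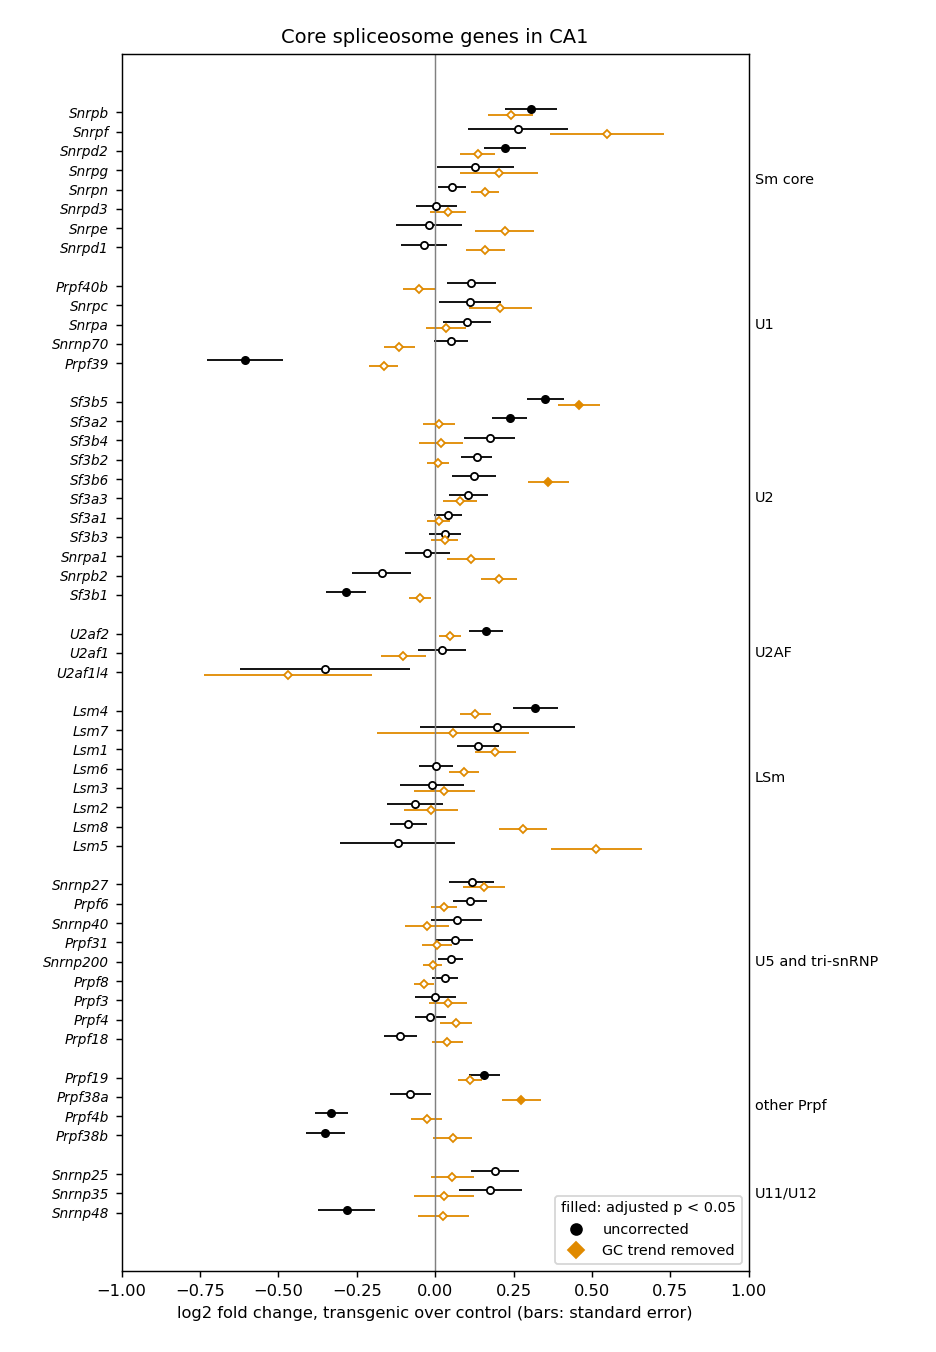
Log2 fold change of transgenic over control (x axis) for the 51 core spliceosome genes, grouped by role. Black circles are the uncorrected edgeR estimate, orange diamonds the estimate with each library's GC trend removed, bars 1 standard error, and filled symbols an adjusted p under 0.05. The uncorrected filled circles number 12, the filled diamonds 3, and Prpf39 lies farthest to the left without correction, at -0.61.

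Among the 8 proteins of the Sm ring, Snrpb and Snrpd2 were higher in transgenic libraries and none was lower. Snrpb encodes SmB and its longer form SmB′. Its level was 50.9 to 63.7 CPM in transgenic libraries (median 55.5), against 44.6, 54.7, 47.7, 42.2 and 40.9 CPM in the controls. Control 2 overlapped the transgenic range, and 4 of the 6 transgenic libraries lay above every control. Snrpb differed by 0.305 ± 0.08 on the log2 scale (standard error; edgeR adjusted p 0.0265). After GC removal it was 0.24 with an edgeR adjusted p of 0.0964.

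Snrpd2, the gene of another ring protein, stood at 20.1 to 23.9 CPM in transgenic libraries (median 23.1), against 18.9, 20.8, 19.9, 19.9 and 17.0 CPM in the controls. All transgenic libraries but one exceeded the highest control. Its log2 fold change was 0.22 ± 0.07 (standard error; edgeR adjusted p 0.0371), and 0.14 after GC removal (edgeR adjusted p 0.213). The other 6 Sm genes had log2 fold changes of -0.04 to 0.26 and edgeR adjusted p of at least 0.254. Snrpf, Snrpe and Snrpg averaged under 10 CPM in both groups, and Snrpf shared 65.9% of its exon sequence with genes on the opposite strand, chiefly Ccdc38. The kit marks no strand, so reads of Snrpf and of that neighbour cannot be told apart.

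Snrpn encodes SmN, a close relative of SmB that is expressed mainly in neurons from the paternal allele. It was the most abundant member per length, at 166 ± 3.53 CPM per kb of annotated exon over the 6 transgenic libraries and 160.2 ± 7.59 over the 5 controls (± SD). In CPM it stood at 349 to 370.1 in transgenic libraries (median 361), against 347, 367, 356, 329 and 330.0 in the controls. The ranges overlapped and the log2 fold change of 0.05 did not pass (edgeR adjusted p 0.423). The value after GC removal was 0.16 (edgeR adjusted p 0.0747). Snrpn overlaps Snurf and Gm38393 over 27.3% of its exons, and reads there cannot be assigned to one of them. The CPM of Snrpb was 0.159 of that of Snrpn in transgenic libraries and 0.133 of it in controls.

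The U1 snRNP held the largest fall among the members called. Prpf39 is the counterpart of a U1 protein first described in yeast. Prpf39 stood at 36.2 to 59.1 CPM in transgenic libraries (median 41.7), against 69.3, 64.2, 68.8, 71.5 and 71.1 CPM in the controls. Every transgenic library lay below every control, and transgenic 5 and 6, the libraries with the smallest GC slopes of their group, were nearest to the controls at 55.9 and 59.1 CPM. The mean was 45.2 ± 9.98 CPM over the 6 transgenic libraries and 69.0 ± 2.91 CPM over the 5 controls (± SD). The log2 fold change was -0.61 ± 0.12 (standard error; edgeR adjusted p 0.0123). After GC removal it was -0.16 ± 0.05, with an edgeR adjusted p of 0.0822.

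Prpf40b, whose yeast counterpart is a U1 protein, had 57.0% GC and stood at 84.0 to 119.7 CPM in transgenic libraries (median 101), against 98.8, 94.4, 84.5, 91.3 and 97.5 CPM in the controls. Those ranges overlapped, and the log2 fold change of 0.12 did not pass (edgeR adjusted p 0.316). After GC removal the sign turned, to -0.05 (edgeR adjusted p 0.659).

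The proteins that mark the U1 particle itself did not pass the test. Snrnp70 encodes the U1-specific protein that binds the first stem-loop of U1 RNA. It had 427 to 506 CPM in transgenic libraries (median 447), against 435, 463, 411, 431 and 456 CPM in the controls. The overlap was wide, with a log2 fold change of 0.05 (edgeR adjusted p 0.555) that became -0.12 after GC removal (edgeR adjusted p 0.232). Snrpa, which encodes the A protein of U1, stood at 27.3 to 35.7 CPM in transgenic libraries (median 31.2), against 28.6, 29.9, 29.1, 32.3 and 27.1 CPM in the controls, a log2 fold change of 0.10 (edgeR adjusted p 0.379) and of 0.04 after GC removal. Snrpc encodes the remaining U1-specific protein and had a log2 fold change of 0.11, with means of 6.91 CPM in transgenic libraries and 6.42 CPM in controls.

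Of the 11 U2 genes, Sf3b5 and Sf3a2 were higher and Sf3b1 was lower. Sf3b5 encodes the smallest SF3b subunit and lies at chr10:13005343-13009183 on the plus strand. Transgenic libraries held 24.6 to 28.9 CPM (median 27.0), against 20.2, 22.1, 21.4, 20.9 and 20.9 CPM in the controls. Every transgenic library was above every control. The mean was 26.9 ± 1.83 CPM over the 6 transgenic libraries and 21.1 ± 0.68 CPM over the 5 controls (± SD), a log2 fold change of 0.35 ± 0.06 (standard error; edgeR adjusted p 0.0103). With the transcript GC trend removed it was 0.46 ± 0.07 (edgeR adjusted p 0.0314), and with the coding GC trend removed 0.19 ± 0.05 (edgeR adjusted p 0.0396). The gene is annotated as 1 exon of 3841 bases with a coding sequence of only 258 bases. Its transcript has 45.5% GC and its coding sequence 61.6%, with 94.2% GC at the last position of its codons, so the size of a GC adjustment depends on which of these is used.

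Sf3a2 encodes the SF3a subunit that contacts U2 near the branch site. It had 29.6 to 33.6 CPM in transgenic libraries (median 32.2), against 25.2, 29.4, 26.6, 26.8 and 26.1 CPM in the controls. The groups did not overlap, though control 2 came close to the lowest transgenic library. The log2 fold change was 0.24 ± 0.06 (standard error; edgeR adjusted p 0.0169) and 0.01 after GC removal (edgeR adjusted p 0.940). At 62.2% its transcript had the highest GC content of all members, and 16.1% of its exons overlap Plekhj1 on the other strand.

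Sf3b1 encodes the largest SF3b subunit, which clamps the branch site helix and is often mutated in human blood cancers. Its level was 276 to 356 CPM in transgenic libraries (median 320), against 381, 379, 396, 392 and 396.5 CPM in the controls. No transgenic library reached the lowest control. The mean was 319.5 ± 30.4 CPM over the 6 transgenic libraries and 389 ± 8.39 CPM over the 5 controls (± SD), with a log2 fold change of -0.28 ± 0.06 (standard error; edgeR adjusted p 0.0152). After GC removal it was -0.05 (edgeR adjusted p 0.532).

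Sf3b6 encodes the subunit that lies next to the branch-site adenosine. It stood at 25.2 to 29.2 CPM in transgenic libraries (median 27.6), against 23.2, 24.8, 28.0, 27.6 and 21.9 CPM in the controls. These ranges overlapped, and without correction the log2 fold change of 0.12 did not pass (edgeR adjusted p 0.238). It was 0.36 after removal of the transcript GC trend (edgeR adjusted p 0.0314) and 0.41 after removal of the coding GC trend (edgeR adjusted p 0.0194). The calls of Sf3b5 and Sf3b6 after removal of the transcript GC trend held in 3 of the 11 fits that also left out 1 library, those without transgenic 5, transgenic 6 or control 2. In the other 8 fits edgeR called 0 genes of the whole table, with 2490 to 3225 genes at an unadjusted p under 0.05.

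Another 7 U2 genes had log2 fold changes of -0.17 to 0.17 without correction and did not pass. Sf3b2, whose product binds Sf3b4 and contacts the pre-mRNA upstream of the branch site, had 256 to 284 CPM in transgenic libraries (median 274), against 236, 266, 252, 245 and 238 CPM in the controls. Its log2 fold change of 0.13 had an edgeR adjusted p of 0.0805, and it was 0.01 after GC removal. The authors' deposited table lists Sf3b2 as higher, with a log2 fold change of 0.13 and an adjusted p of 0.0430. That table otherwise holds the same 12 members in the same directions.

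U2af2, the larger U2 auxiliary factor, which binds the polypyrimidine tract, was higher. Transgenic libraries had 71.2 to 84.6 CPM (median 79.3), against 68.7, 71.9, 67.3, 69.1 and 71.7 CPM in the controls. The lowest transgenic library lay inside the control range and the other 5 above it. This gave a log2 fold change of 0.16 ± 0.05 (standard error; edgeR adjusted p 0.0482), and 0.05 after GC removal (edgeR adjusted p 0.534). U2af1, which reads the AG at the end of the intron, stood at 7.14 to 8.43 CPM in transgenic libraries (median 7.70), against 7.81, 7.62, 7.17, 8.03 and 7.29 CPM in the controls, with a log2 fold change of 0.02 (edgeR adjusted p 0.921) that became -0.10 after GC removal (edgeR adjusted p 0.487). U2af1l4, its short relative, had under 1 CPM in every library, from 11 to 29 counts, and 97.2% of its 50-base stretches also occur in other genes, so its log2 fold change of -0.35 ± 0.27 (standard error; edgeR adjusted p 0.380) is uncertain. Of the 50-base stretches of U2af1, 59.4% also occur elsewhere, in processed pseudogenes.

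Of the 8 LSm genes, Lsm4 was higher. Its product is part of the nuclear ring that holds U6 and of the cytoplasmic ring that takes part in mRNA decapping. It had 23.6 to 28.4 CPM in transgenic libraries (median 26.6), against 20.2, 24.0, 20.8, 18.9 and 21.2 CPM in the controls. Only the lowest transgenic library overlapped the controls, and only with control 2. The mean was 26.2 ± 1.84 CPM over the 6 transgenic libraries and 21.0 ± 1.89 CPM over the 5 controls (± SD), a log2 fold change of 0.32 ± 0.07 (standard error; edgeR adjusted p 0.0152). After GC removal it was 0.13 (edgeR adjusted p 0.195). The other 7 had log2 fold changes of -0.12 to 0.20 and edgeR adjusted p of at least 0.157, among them Lsm1, which is found only in the cytoplasmic ring, at 0.14, and Lsm8, which is found only in the nuclear ring, at -0.09. Lsm5 and Lsm7 never reached 100 counts in a library.

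Of the 9 genes of U5 and the tri-snRNP 0 passed the edgeR test, 0 had an unadjusted p under 0.05 there, and 0 were called by DESeq2 or limma, where 1 and 2 had an unadjusted p under 0.05. Over all genes edgeR called 17.9% at the adjusted threshold. The shares of all genes at an unadjusted p under 0.05 were not counted for these fits. The log2 fold changes of these 9 genes lay between -0.11 and 0.12, the narrowest range of the 8 role classes. The smallest edgeR adjusted p was 0.151 for Prpf18. Their transcripts had 44.3% to 52.7% GC. The members called lower had 37.6% to 42.1% GC and those called higher 45.5% to 62.2%. Whether GC content relates to the lack of calls in this class was not tested. Prpf8 encodes the scaffold of the catalytic centre. It was the most abundant of the class per length, with 293.5 to 312.5 CPM in transgenic libraries (median 307.5), against 303, 304, 292, 290.6 and 300.1 CPM in the controls, and a log2 fold change of 0.03 ± 0.04 (standard error; edgeR adjusted p 0.629). With the GC trend removed it was -0.04 (edgeR adjusted p 0.592). Snrnp200, the helicase that unwinds U4 from U6, differed by 0.05 on the log2 scale.

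Prpf19, the ubiquitin ligase at the core of the complex that bears its name, was higher. Its level was 192.5 to 212 CPM in transgenic libraries (median 206.5), against 173, 192.1, 189.7, 186 and 173 CPM in the controls. The groups did not overlap, but control 2 lay only just under the lowest transgenic library. The log2 fold change was 0.16 ± 0.05 (standard error; edgeR adjusted p 0.0449), and 0.11 after GC removal (edgeR adjusted p 0.148).

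Prpf4b, a kinase that phosphorylates tri-snRNP proteins, was lower. Transgenic libraries had 85.7 to 99.3 CPM (median 91.0), against 118, 104, 117, 119 and 124 CPM in the controls. Every transgenic library was below every control. The mean was 92.4 ± 4.95 CPM over the 6 transgenic libraries and 116 ± 7.40 CPM over the 5 controls (± SD), a log2 fold change of -0.33 ± 0.05 (standard error; edgeR adjusted p 0.0103). After GC removal it was -0.03 (edgeR adjusted p 0.829).

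Prpf38b was lower as well. It had 54.6 to 67.8 CPM in transgenic libraries (median 60.9), against 76.1, 70.4, 77.5, 85.1 and 78.9 CPM in the controls. The groups did not overlap. Its log2 fold change was -0.35 ± 0.06 (standard error; edgeR adjusted p 0.0111). It was 0.06 after removal of the transcript GC trend and -0.32 with an edgeR adjusted p of 0.0194 after removal of the coding GC trend. The coding sequence of Prpf38b has 50.8% GC and its longest transcript 38.8%.

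Prpf38a, a protein that joins the spliceosome with the tri-snRNP, had 18.6 to 22.5 CPM in transgenic libraries (median 21.2), against 21.4, 21.8, 23.8, 21.3 and 22.7 CPM in the controls. The ranges overlapped and the log2 fold change of -0.08 did not pass (edgeR adjusted p 0.405). After removal of the transcript GC trend the sign turned, to 0.27 ± 0.06 with an edgeR adjusted p of 0.0428. That call held in 2 of the 11 fits with 1 library left out, those without transgenic 6 or control 2. After removal of the coding GC trend the value was 0.03 (edgeR adjusted p 0.791).

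In the minor spliceosome, Snrnp48 of the U11/U12 particle was lower. Its level was 12.2 to 14.6 CPM in transgenic libraries (median 13.2), against 15.1, 13.1, 18.05, 18.5 and 16.1 CPM in the controls. Control 2 lay within the transgenic range. The log2 fold change was -0.28 ± 0.09 (standard error; edgeR adjusted p 0.0461), and 0.03 after GC removal (edgeR adjusted p 0.908). Snrnp25, of the same particle, had 9.55 to 11.6 CPM in transgenic libraries (median 10.8), against 9.06, 9.81, 8.88, 9.41 and 9.68 CPM in the controls, a log2 fold change of 0.19 that did not pass (edgeR adjusted p 0.0945) and that was 0.06 after GC removal.

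**Figure D2:**
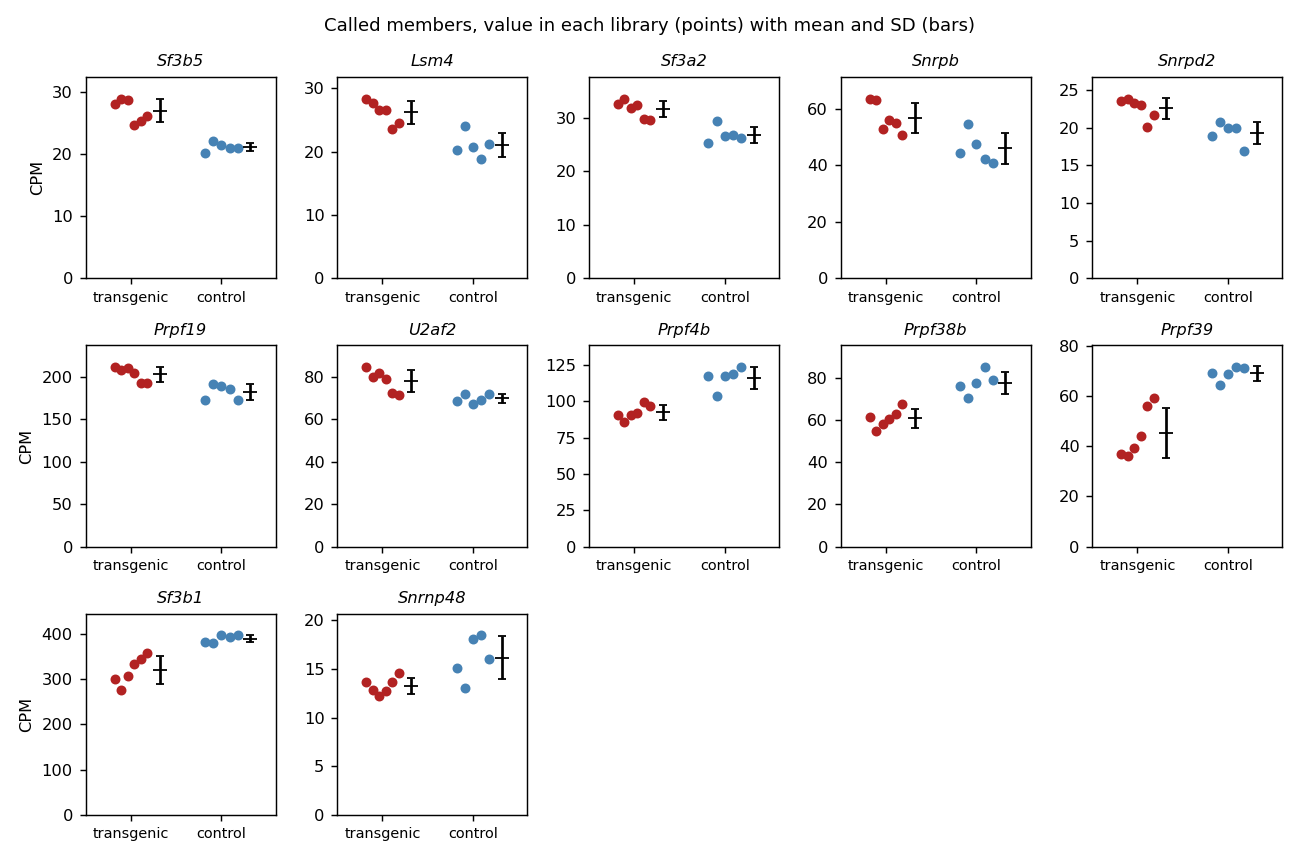
CPM (y axis, from 0) of the 12 core spliceosome genes called between the groups, 1 point per library in replicate order, with transgenic libraries in red on the left and controls in blue on the right. Bars give the mean and SD. The groups of Sf3b5, Sf3a2, Prpf19, Prpf4b, Prpf38b, Prpf39 and Sf3b1 do not overlap, and those of the other 5 genes do.

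The groups of 7 members did not overlap in CPM. These were Sf3b5, Sf3a2 and Prpf19 with the transgenic libraries above (5.88% of the members, against 3.04% of all genes) and Prpf39, Prpf38b, Prpf4b and Sf3b1 with the transgenic libraries below (7.84%, against 4.73%). When 1 library was left out, 7 of the 12 calls held in all 11 fits: Sf3b5, Sf3a2, Lsm4, Prpf39, Prpf38b, Prpf4b and Sf3b1. The share of all called genes that held in every such fit was not counted, so this count has no background. Snrpb lost its call without transgenic 1 or 2 or without control 1, 4 or 5, with edgeR adjusted p of up to 0.0712. Prpf19, Snrpd2 and U2af2 kept theirs only without transgenic 5, transgenic 6 or control 2, and Snrnp48 only without transgenic 6 or control 2. In the fits where these 4 calls were lost, the edgeR adjusted p reached at most 0.107, 0.0853, 0.104 and 0.126 for Prpf19, Snrpd2, U2af2 and Snrnp48.

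Across the 51 members, the log2 fold change followed GC content. Spearman's rho was 0.62 with the GC of the longest transcript and 0.68 with that of the coding sequence, over genes measured in the same libraries, which are not independent of one another. With the transcript GC trend removed, rho was -0.46. The correction turned the sign of 18 members, of which Prpf38b and Snrnp48 had been called. Before it, 33 members had a log2 fold change above 0 and 17 below 0. After it, 40 lay above 0 and 11 below, with a median of 0.05 over the members and 0.00 over all genes.

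**Figure D3:**
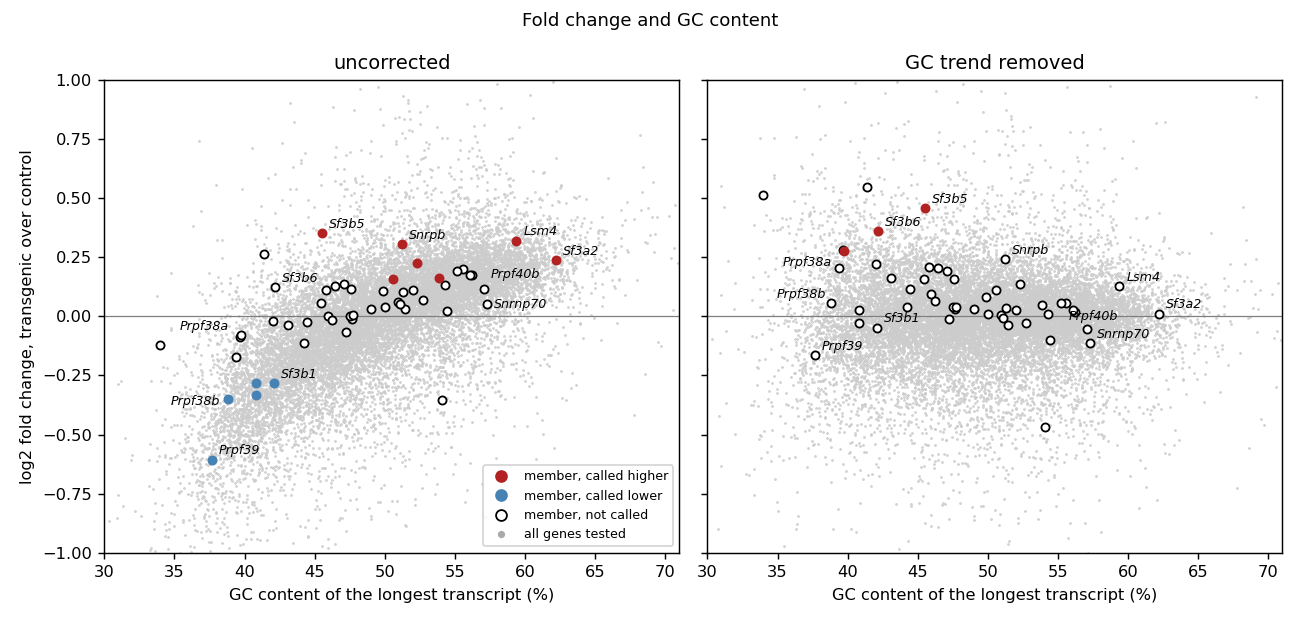
Log2 fold change of transgenic over control (y axis) against the GC content of the longest transcript (x axis, percent), without correction on the left and with each library's GC trend removed on the right. Grey points are all genes tested, within 1 log2 unit of 0, and large points the 51 core spliceosome genes, red where called higher, blue where called lower and open where not called. On the left the 5 blue points lie at 37.6% to 42.1% GC and the 7 red points at 45.5% to 62.2%.

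Several members have a close relative, and the ratio of the pair shows whether the balance between them differed. The log2 ratio was compared for 4 pairs by a two-sided exact permutation over the 462 ways of drawing 6 of the 11 libraries, with Benjamini-Hochberg adjustment over the 4. Prpf38a to Prpf38b was -1.53 ± 0.07 over the 6 transgenic libraries and -1.80 ± 0.12 over the 5 controls (± SD), a difference of 0.27 (exact permutation p 0.00433, adjusted 0.0173). No transgenic library reached down to the control range. The difference was 0.22 after removal of the transcript GC trend and 0.35 after removal of the coding GC trend, each with an exact permutation p of 0.00433 (adjusted 0.0173). With 1 library left out it ranged from 0.22 to 0.30. This was the one pair of the 4 that passed under all 3 treatments of GC. The longest transcripts of the pair have 39.8% and 38.8% GC, so removal of the transcript GC trend could alter their ratio little. The pairs were chosen with earlier results of these data known. Prpf38b had already been called, so the ratio is not separate support for a difference.

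The log2 ratio of Snrpb to Snrpn was -2.66 ± 0.16 over the 6 transgenic libraries and -2.91 ± 0.10 over the 5 controls (± SD). The difference of 0.26 passed (exact permutation p 0.0173, adjusted 0.0346). It was 0.09 after removal of the transcript GC trend (exact permutation p 0.156) and 0.20 after removal of the coding GC trend (exact permutation p 0.0260, adjusted 0.0346).

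Snrpa and Snrpb2 encode the closely related RNA-binding proteins of U1 and U2. Their log2 ratio was 0.73 ± 0.32 over the 6 transgenic libraries and 0.46 ± 0.15 over the 5 controls (± SD), a difference of 0.27 that did not pass (exact permutation p 0.126). The transcript GC correction reversed it to -0.17 (exact permutation p 0.0303, adjusted 0.0606), and the coding GC correction to -0.20 (exact permutation p 0.0173, adjusted 0.0346). Snrpb2, at 39.4% GC, had 16.4 to 21.9 CPM in transgenic libraries (median 19.0), against 18.7, 19.3, 23.1, 24.3 and 21.6 CPM in the controls. The ratio of U2af1l4 to U2af1 did not pass in any of the 3 treatments.

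**Figure D4:**
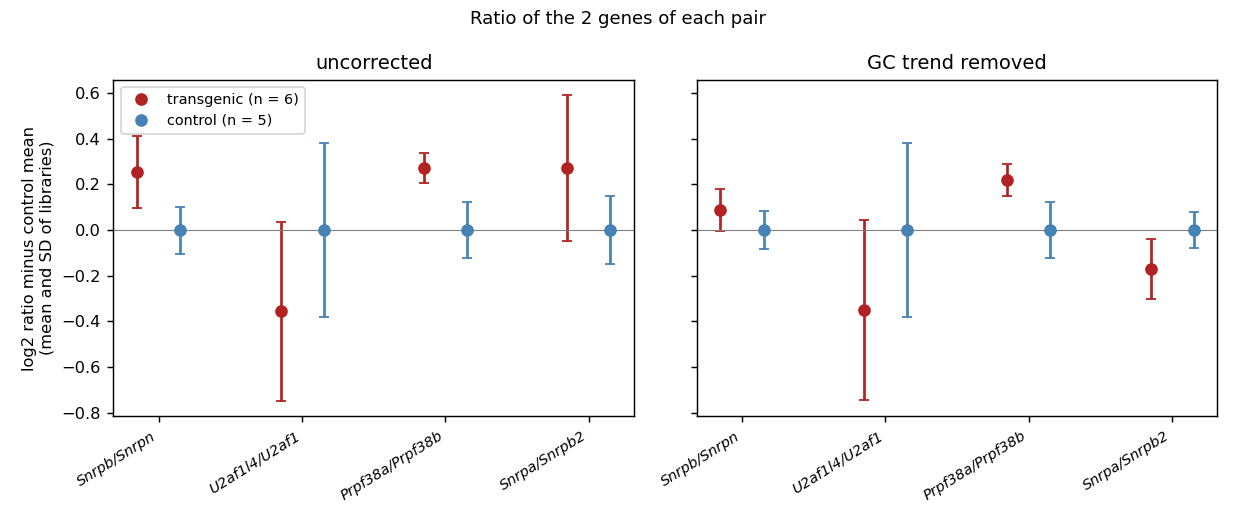
Log2 ratio of the genes of 4 pairs, relative to the control mean (y axis), without correction on the left and with each library's GC trend removed on the right. Points are means and bars SD over 6 transgenic libraries (red) and 5 controls (blue). The gap for Prpf38a to Prpf38b is 0.27 on the left and 0.22 on the right, while that for Snrpa to Snrpb2 is 0.27 on the left and -0.17 on the right.

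Levels per length spanned a wide range that both groups shared. Snrpn led, followed by Snrnp70 at 59.7 ± 3.81 CPM per kb over the 6 transgenic libraries and 57.7 ± 2.73 over the 5 controls (± SD). Prpf8 and Sf3b2 came next, at 40.8 ± 1.06 and 39.8 ± 1.83 CPM per kb in transgenic libraries, against 39.9 ± 0.86 and 36.3 ± 1.80 in controls, and these 2 did not differ beyond their spread in transgenic libraries. U2af1l4 was lowest, at 0.347 ± 0.13 CPM per kb over the 6 transgenic libraries and 0.439 ± 0.11 over the 5 controls (± SD). Members that form the same ring did not have like levels: Snrpd3 stood at 14.5 and Snrpf at 2.07 CPM per kb in transgenic libraries, against 14.4 and 1.69 in controls. Annotated exon length, overlap with other genes and pseudogenes enter these values. This holds most for Snrpf, with 65.9% of its exon sequence overlapped and 89.5% of its 50-base stretches found in other genes, so its level is uncertain.

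**Figure D5:**
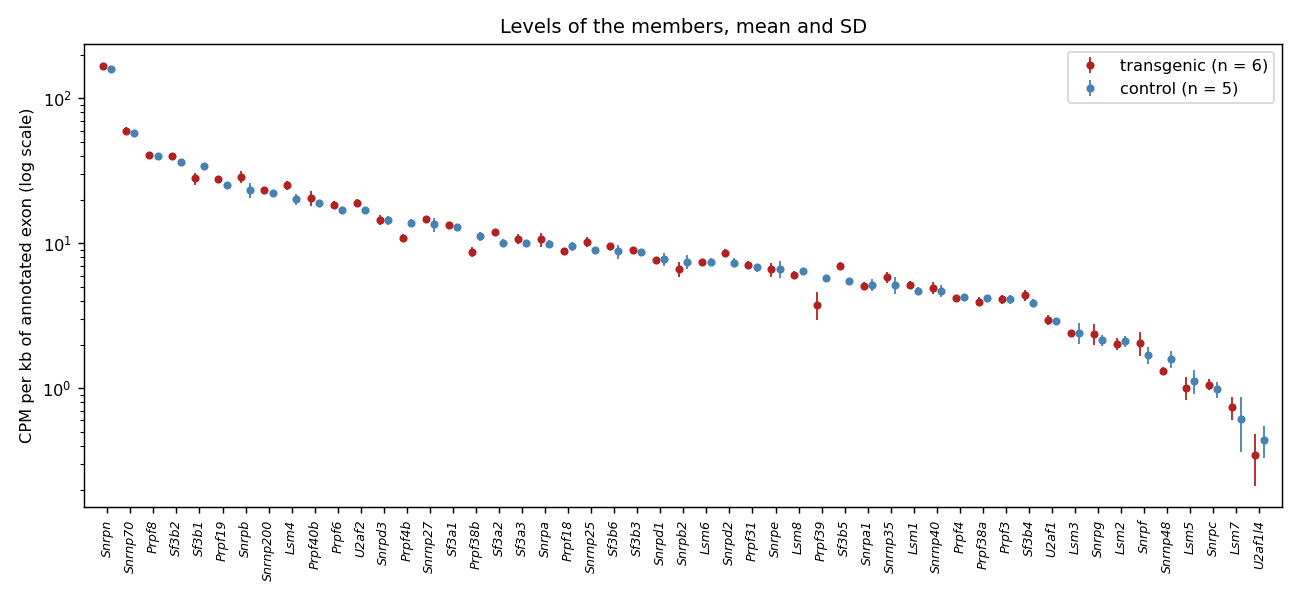
Mean level of the 51 core spliceosome genes in CPM per kb of annotated exon (y axis, log scale), ordered by the control mean, with transgenic libraries in red to the left of controls in blue and bars of 1 SD. Snrpn is highest at 166 in transgenic libraries and 160.2 in controls, and U2af1l4 lowest at 0.347 in transgenic libraries and 0.439 in controls.

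Promoters were read for the 42 members with an entry among the RefSeq promoters (300 bases around the annotated start, build GRCm38.p6). The 3 shown are of genes called higher, lower, and higher only after GC removal, because the letters CCGGAAG, the core that ETS factors bind, occur in all of them. Capitals mark this core or the GC box GGGCGG on either strand, and where both touch they form 1 run.
Sf3a2, chr10:80798485-80798784, plus strand: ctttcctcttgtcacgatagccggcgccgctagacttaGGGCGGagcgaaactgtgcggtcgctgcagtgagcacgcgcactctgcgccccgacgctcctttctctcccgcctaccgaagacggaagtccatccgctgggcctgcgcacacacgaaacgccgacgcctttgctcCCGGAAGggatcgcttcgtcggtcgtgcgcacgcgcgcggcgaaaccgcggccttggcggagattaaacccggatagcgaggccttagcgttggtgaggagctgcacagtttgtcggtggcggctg
Prpf4b, chr13:34875279-34875578, plus strand: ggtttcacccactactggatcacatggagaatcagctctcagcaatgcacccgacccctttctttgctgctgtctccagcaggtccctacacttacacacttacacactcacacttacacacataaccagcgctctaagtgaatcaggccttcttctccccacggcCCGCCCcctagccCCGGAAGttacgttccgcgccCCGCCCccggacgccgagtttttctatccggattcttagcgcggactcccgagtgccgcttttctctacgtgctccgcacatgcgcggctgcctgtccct
Sf3b6, chr12:4817358-4817657, plus strand: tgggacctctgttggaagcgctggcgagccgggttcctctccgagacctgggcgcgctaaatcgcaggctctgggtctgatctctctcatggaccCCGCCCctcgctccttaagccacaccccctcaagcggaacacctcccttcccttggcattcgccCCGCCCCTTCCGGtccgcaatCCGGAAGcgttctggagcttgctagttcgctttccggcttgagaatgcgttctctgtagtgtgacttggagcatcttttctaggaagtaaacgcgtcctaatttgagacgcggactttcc

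Some genes have several promoter entries, and a gene is counted where any of them holds the letters. The ETS core was found on either strand for 17 of the 42 members, or 40.5%. That compares with 17.3% of the 12306 tested genes with an entry and 9.9% of all 27025 genes with one. Of the members called between the groups, Prpf19, Prpf4b and Sf3a2 carried it, and Snrpd2, Prpf39, Prpf38b, Sf3b1 and Snrnp48 did not. The called members Lsm4, Snrpb, Sf3b5 and U2af2 had no promoter entry and could not be read. The GC box occurred for 66.7% of the members and 65.4% of the tested genes with an entry. In the same order, the CCAAT box (CCAAT) occurred for 40.5% and 42.2% and the TATA box (TATAAA) for 9.5% and 9.2%. The NRF1 half-site (GCGCATGC) occurred for 9.5% and 5.4%, and the YY1 core (AAGATGG) for 7.1% and 7.8%. These are matches of letters within 300 bases and not evidence of binding.

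Other spliceosome genes were read from 5 lists of U5 and tri-snRNP, U2 and branch-site, Prpf19 complex and catalytic-stage, U11/U12 and snRNP assembly proteins. Of 67 genes 66 were tested, and 3 were higher (4.55%, against 7.41% of all genes) and 5 lower (7.58%, against 10.5%) without correction. Both shares were below those of all genes. The higher ones were Puf60 (log2 fold change 0.23), which binds near the 3′ splice site with U2af2, Phf5a, the SF3b subunit whose name falls outside the gene rule, and Xab2, which travels with the Prpf19 complex. Dhx15, a helicase that dismantles spliceosomes, Cwc22, which places exon junction complexes, and Strap, of the SMN complex, were lower. U2surp, a U2-associated protein, stood at 65.3 to 91.2 CPM in transgenic libraries (median 73.6), against 95.6, 94.4, 103, 108 and 109 CPM in the controls, a log2 fold change of -0.44 (edgeR adjusted p 0.0117). Rnpc3, a U11/U12 protein at 33.1% GC, stood at 19.5 to 36.5 CPM in transgenic libraries (median 26.4), against 42.3, 39.5, 43.4, 42.4 and 45.2 CPM in the controls, a log2 fold change of -0.61 (edgeR adjusted p 0.0165). In both the groups did not overlap. After removal of the transcript GC trend those values were -0.02 for U2surp and 0.07 for Rnpc3. After removal of the coding GC trend both were still called lower, U2surp at -0.15 (edgeR adjusted p 0.0355) and Rnpc3 at -0.34 (edgeR adjusted p 0.0460). Of the 66 genes, edgeR called 2 higher after removal of the transcript GC trend, Phf5a and Snw1 (3.03%, against 1.16% of all genes), and 0 lower (against 0.821%). At an unadjusted edgeR p under 0.05, 4 were lower, and the share of all genes at that threshold was not counted. After removal of the coding GC trend edgeR called 4 higher (6.06%, against 2.21%), Cwc27, Phf5a, Snw1 and Zcrb1, and 2 lower (3.03%, against 3.61%).

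Cell makeup was read from marker lists. The summed level of 6 CA1 pyramidal markers was 1203 to 1530 CPM in transgenic libraries and 1103 to 1318 CPM in controls. The 5 dentate granule markers summed to 49.1 to 150.5 CPM in transgenic libraries and 40.9 to 176 CPM in controls. None of the 11 marker lists separated the groups and no marker was at 0. In the fit without GC removal, 3 of 5 microglial markers were called higher (Csf1r, Trem2 and Tyrobp), while Cx3cr1 and P2ry12 were not called. Of all genes 7.41% were called higher there. The 5 markers summed to 207 to 265 CPM in transgenic libraries and 181 to 225.5 CPM in controls. In the same fit Slc32a1 of interneurons and Aldh1l1 of astrocytes were also higher, and Rgs5 of mural cells was lower. Their part in the differences of the spliceosome genes was not tested. In whole tissue, fewer cells of a type and less RNA per cell cannot be told apart. Camk2d, the gene of the transgene, had a median of 50.7 CPM in transgenic libraries (40.4 to 131.6), against 53.7, 94.3, 61.6, 60.7 and 89.8 CPM in the controls, and did not pass (edgeR adjusted p 0.873).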

How the data were processed

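Polyadenylated RNA from microdissected CA1 was turned into unstranded TruSeq libraries and read as single ends of 50 bases, per the labels' protocols. The authors deposited raw counts per gene for each library on build mm10, and tables of their own comparison holding log2 fold changes by the authors, adjusted p-values by the authors and a deposited signal of size-factor-scaled counts. The submitters' processing notes name STAR 2.5.2b, Subread 1.5.1, featureCounts and FastQC 0.11.5, with no settings.

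Genes were matched to GENCODE M21. Counts were filtered with filterByExpr (17293 genes, 99.9% of counts), scaled by TMM and tested with edgeR 4.0.16 in R 4.3.3 (quasi-likelihood F test, 11 libraries, no covariate, Benjamini-Hochberg, adjusted p under 0.05). Log2 CPM used a prior count of 2. GC content was that of the longest transcript (17246 genes). For GC removal, a lowess curve (span 0.3) of each library's log2 CPM deviation on GC entered as an offset. Shared sequence was counted as 50-base stretches found in other genes. Procedures were tested on simulated data. Genes named with every library's value were the called members, 4 pairs of relatives, Prpf40b, the most abundant member of each class and up to 3 genes of each further list. The rule by name also takes 1 gene that is not reported here, and it enters no count of members. The members, classes, pairs and lists were chosen with earlier results of these data known. Alternatives were DESeq2 1.42.0 and limma 3.58.1 voom, other scalings, no filter, a replicate block, Xist as a covariate, GC and length trends, and each library left out. The coding GC trend, the centred trend, GC removal with a library left out and the other settings of the pair ratios were added after seeing the data.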

Additional observations from a re-analysis of the deposited data

How the results depend on the processing

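The count of members called higher was 7, and 4 without a filter, 3 with the GC trend removed, 3 with GC and length trends removed, 3 with a centred GC trend, 2 with the coding GC trend and 6 with the replicate block and GC removal together. Of those 6, 2 were among the 7, and Lsm8, Prpf38a, Sf3b6 and Snrpf were added. The number of all genes called changed as well. It was 3094 in the main fit, 2069 without a filter and 342 with the GC trend removed. With GC and length trends it was 294, with a centred trend 360, with the coding GC trend 1006 and with block and GC removal 746. The 5 members called lower became 0 with the GC trend removed, 0 with GC and length trends, 0 with a centred GC trend, 0 with the replicate block and GC removal together, and 1 with the coding GC trend. With 1 library left out, 3 to 8 members were called higher and 4 to 5 lower, while 1155 to 4712 of all genes were called. With GC removal and 1 library left out, 0 to 6 members were higher and 0 to 1 lower, while 0 to 942 of all genes were called. Among other spliceosome genes, the 3 called higher became 6 with upper-quartile scaling, 1 without a filter, 7 with DESeq2, 9 with limma, 8 with the replicate block and 7 with Xist as a covariate, and the 5 called lower became 0 with the GC trend removed, alone, centred, with the block or with length, and 2 with the coding GC trend. With 1 library left out those counts were 0 to 9 and 3 to 6, and with GC removal as well 0 to 3 and 0 to 0. All genes called numbered 3235 with upper-quartile scaling, 3952 with DESeq2, 4774 with limma, 4594 with the replicate block and 3904 with Xist. Calls by DESeq2 and limma held the 12 members and added Sf3b2. The median over the members stayed between 0.02 and 0.07 in all alternatives run.

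Replicate numbers do not pair the libraries: same-numbered deviations correlated at 0.20, -0.03, -0.19, -0.05 and 0.02. With the number as a replicate block, 8 members were called higher and 6 lower, the added ones being Sf3b2 and Snrpb2, and 4594 genes in all.

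Signs turned for genes of low and of high GC content. With the GC trend removed the log2 fold change was 0.275 for Prpf38a, 0.056 for Prpf38b, -0.052 for Prpf40b, -0.037 for Prpf8, 0.026 for Snrnp48, -0.115 for Snrnp70, 0.203 for Snrpb2, -0.102 for U2af1, -0.016 for Eftud2, -0.022 for Dhx16, 0.07 for Rnpc3 and 0.054 for Camk2d. With the replicate block as well it was 0.314 for Prpf38a, 0.084 for Prpf38b, -0.022 for Prpf40b, 0.003 for Prpf4b, -0.04 for Prpf8, 0.049 for Snrnp48, -0.13 for Snrnp70, 0.221 for Snrpb2, -0.097 for U2af1, -0.046 for Dhx16 and 0.096 for Rnpc3. With GC and length trends removed it was 0.274 for Prpf38a, 0.07 for Prpf38b, -0.054 for Prpf40b, -0.019 for Prpf8, -0.011 for Sf3a2, 0.001 for Sf3b1, 0.064 for Snrnp48, -0.095 for Snrnp70, 0.184 for Snrpb2, -0.125 for U2af1, 0.053 for U2surp, -0.032 for Dhx16, 0.08 for Rnpc3, -0.005 for Zmat5 and 0.167 for Camk2d. With the coding GC trend removed it was 0.029 for Prpf38a, -0.006 for Prpf40b, -0.086 for Snrnp70, -0.021 for Snrpa, 0.179 for Snrpb2, -0.037 for Snrpn and -0.025 for U2af1. With 1 library left out Camk2d ranged from -0.384 to 0.042 and U2af1 from -0.006 to 0.042. The pair difference of Snrpa to Snrpb2 was -0.171 with the GC trend removed, or -0.202 with the coding GC trend. The offset is built from GC content, and no cause of these sign changes was tested. No value per library of a named member stood apart from its group by Dixon's test.

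Depth limits the rarest members most: Lsm7 had 4 to 41 counts in a library, U2af1l4 11 to 29 and Lsm5 16 to 35.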
